A study of Arabidopsis thaliana with 2 samples.

Results

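LHY is a MYB-type transcription factor of the plant circadian clock, and the genes described here are those among its binding targets in Arabidopsis thaliana that are annotated to abscisic acid (ABA), drought, salt or osmotic stress. They were chosen by their descriptions in the authors' deposited table, which had to contain at least 1 of 4 phrases, a response to abscisic acid, to water deprivation, to salt stress or to osmotic stress. The phrases were found at 46 of the 1602 genes listed with an LHY peak, and no measured value entered the choice. Peaks came from chromatin immunoprecipitation followed by sequencing (ChIP-seq) with an antiserum to LHY on seedlings of the ecotype Col, 2 weeks old and harvested 2 h after dawn. The immunoprecipitated DNA of 4 chromatin samples was pooled into 1 library and compared with 1 library of input DNA from corresponding samples. The labels name no mutation, transgene, stress or hormone treatment for either library, and plants without LHY were not analysed here, so binding was judged against input DNA alone. Whole seedlings were used, so the values are averages over all cell types. With 1 library a group there was no replicate error and no test, and the read depth is unknown.

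ABA is the hormone with which plants answer water deficit. Its receptors, once bound to ABA, inhibit protein phosphatases of the PP2C class, which frees SnRK2 kinases to activate transcription factors and to close the stomata, the pores of the leaf. The downstream genes encode hydrophilic protective proteins, enzymes of osmolyte and redox metabolism, and the pumps and channels that move ions and water. LHY and its homologue CCA1 accumulate around dawn and act mainly as repressors, so that many of their targets are expressed later in the day.

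The strength of a peak is given below as the authors' −log10 q value, which is larger for a more significant peak, and the position as the distance in bp from the transcription start site (TSS), negative when upstream. For the strongest peak of each of the 46 genes the median −log10 q was 12.7, with quartiles of 8.07 and 28 and a range from 3.04 to 116. Over all listed genes the median was 10.3, with quartiles of 6.80 and 18.3. The strongest peak lay above that overall median in 30 of the 46 genes (65.2%), against 48.5% of all listed genes. At or above the upper quartile of the whole table were 16 (34.8%), against 25.0% of all listed genes, and 11 (23.9%, against 27.2%) were at or below the lower quartile. Among the 142 other listed genes whose description names any response term, 54.2% lay above the overall median and 31.0% at or above the upper quartile, closer to the stress genes than the whole table was. The stress genes thus included strong and weak peaks but not the strongest of the table, where values reached 260. None was among the 10 highest of the table, 4 were among the 50 highest and 7 among the 100 highest.

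**Figure D1:**
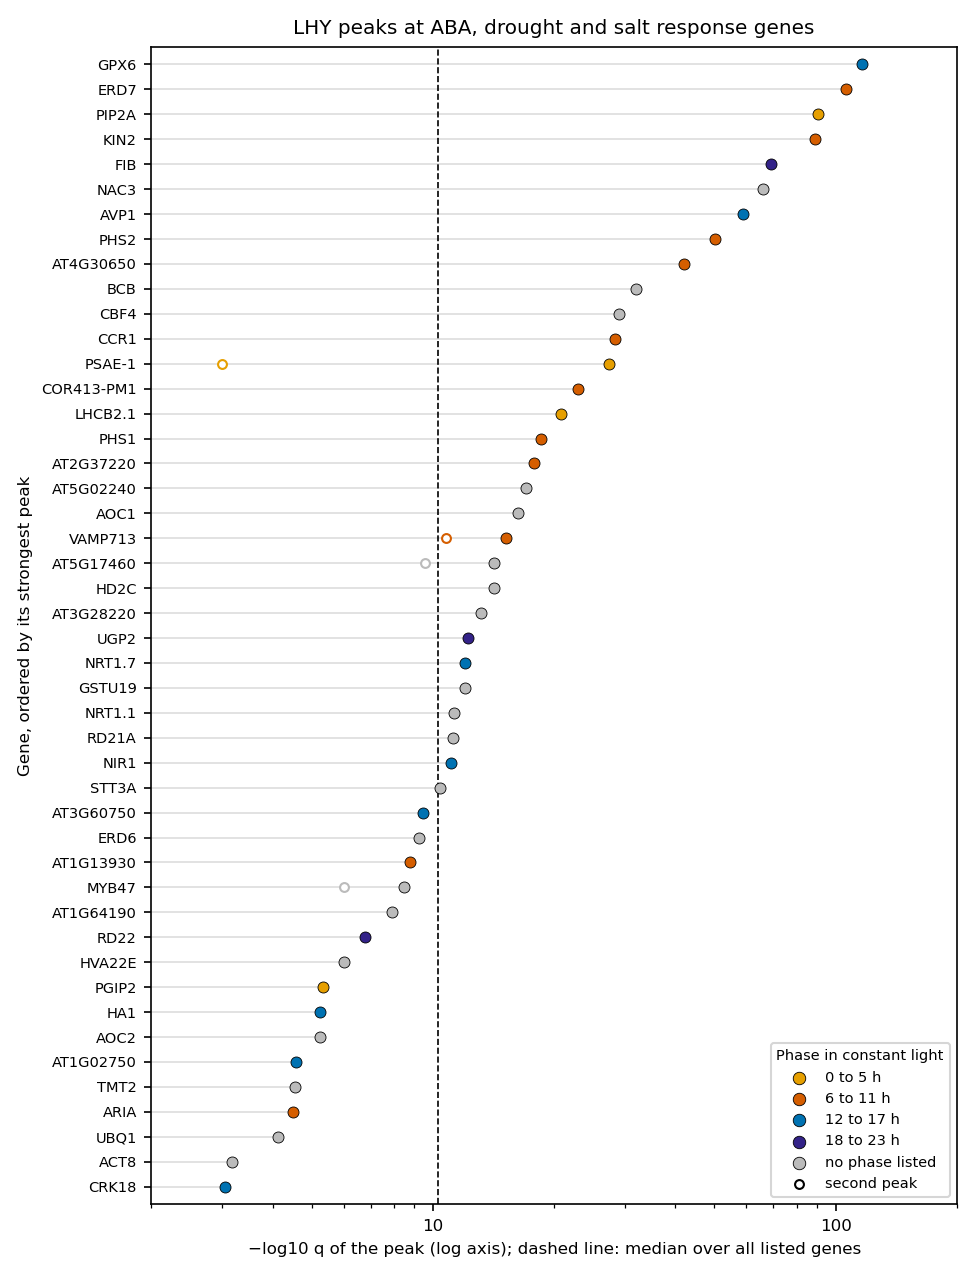
The −log10 q value of the strongest peak (filled points, log axis) of each of the 46 genes in order of strength, with second peaks as open points and colours for the phase of expression in constant light. The values run from 116 at GPX6 to 3.04 at CRK18, and 30 genes lie above the dashed line, the median of 10.3 over all listed genes.

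The 4 strongest peaks belonged to a peroxidase gene, the stress-induced genes ERD7 and KIN2, and a water channel gene. GPX6 (AT4G11600), a glutathione peroxidase that removes peroxides, had the highest value, 116 at 42 bp downstream of the TSS. ERD7 (AT2G17840), a gene first known for its early response to dehydration, had 106 at −32 bp. PIP2A (AT3G53420), an aquaporin of the plasma membrane, had 90.4 at −1567 bp. KIN2 (AT5G15970), which encodes a small hydrophilic protein induced by cold and ABA, had 88.6 at −13 bp and was the only gene whose description held all 4 phrases. Of these 4 peaks, 3 lay within 50 bp of the TSS and that of PIP2A lay far upstream. FIB (AT4G04020), a fibrillin of chloroplast lipid bodies, followed with 68.9 at −446 bp.

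Among transcription regulators, 5 genes had peaks. NAC3 (AT3G15500, also ANAC055), a NAC factor of drought and jasmonate responses, had 66.0 at 87 bp downstream of the TSS. CBF4 (AT5G51990), an ABA-inducible factor of the CBF family that activates dehydration genes, had 28.9 at −308 bp. HD2C (AT5G03740), a plant-specific histone deacetylase, had 14.2 at −224 bp. The 3 strongest of the class thus lay in what is called the promoter window below, from 1000 bp before the TSS to 200 bp after it. MYB47 (AT1G18710) had 2 weaker peaks, 8.5 at −5404 bp and 6.0 at −6788 bp, both far from the gene. AT1G02750, a zinc finger gene of a drought-responsive family, had 4.56 at 140 bp. A phase was listed only for AT1G02750, at 12 h. The same keywords picked 237 listed genes in all, of which 37.6% had a phase.

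Kinase or phosphatase keywords picked 2 of the 46 genes, against 105 of the 1602 listed genes. AVP1, a proton pump, was moved from this class to the transporters by hand. CRK18 (AT4G23260), a cysteine-rich receptor-like kinase, was the only kinase and had the weakest peak of the 46 genes, 3.04 at −219 bp. ARIA (AT5G19330), an armadillo-repeat protein that interacts with the ABA-responsive factor ABF2, had 4.50 at −2155 bp. The SNARE protein gene VAMP713 (AT5G11150), which serves vesicle fusion at the vacuole, had 15.2 at −1026 bp and 10.8 at 163 bp.

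Genes of transport mostly had their peak upstream of the promoter window. Of the 7 transporters, channels and pumps, only ERD6 (AT1G08930), a sugar transporter, had a peak in the promoter window, with 9.22 at 77 bp. AVP1 (AT1G15690), the proton-pumping pyrophosphatase of the vacuole, had 58.9 at −2250 bp, and HA1 (AT2G18960, also AHA1), a proton pump of the plasma membrane that drives stomatal opening, had 5.23 at −5422 bp. The nitrate transporter genes NRT1.1 (AT1G12110) and NRT1.7 (AT1G69870) had 11.3 at −1931 bp and 12 at −1758 bp. TMT2 (AT4G35300), a sugar transporter of the vacuolar membrane, had 4.54 at −1008 bp, only just outside the window. With the aquaporin PIP2A, the median position of the class was −1758 bp, against −408.5 bp over all listed genes. AVP1 was moved into this class, and BCB and GSTU19 out of it, by hand, and the comparison of positions between classes was chosen after the values had been seen. By the keywords alone 3 of 8 genes (37.5%) had a promoter peak, against 67.4% of the 95 listed genes with the same keywords. In a window of 3000 bp upstream, 6 of the 7 had a peak.

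**Figure D2:**
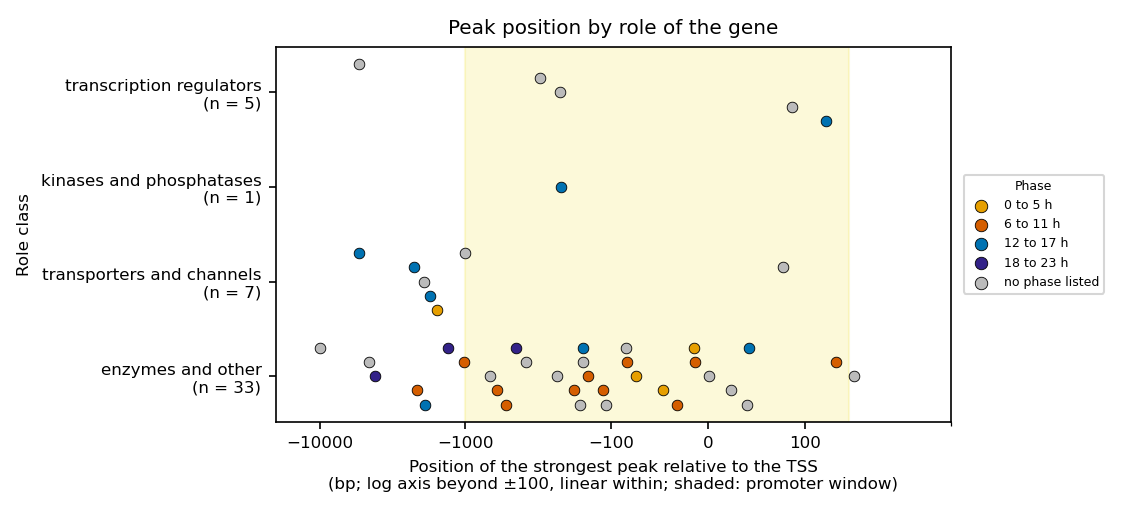
Position of the strongest peak of the 46 genes relative to the TSS (bp, log axis beyond 100 bp), by role class and coloured by phase; the vertical spread within a class has no meaning and the promoter window is shaded. Of the 7 transporters and channels, 6 lie upstream of the window. Counting any listed peak, 27 of the 33 enzymes and other genes had one within it. Of these, VAMP713 and AT5G17460 had only their weaker peak there, so their points lie outside the shading.

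The remaining 33 genes, enzymes and others, were of many kinds, ERD7 and KIN2 among them. COR413-PM1 (AT2G15970), a cold-regulated membrane protein, had 22.9 at −84 bp. AT4G30650, a small membrane protein of a family responsive to low temperature and salt, had 42.0 at −180 bp, and its direct neighbour AT4G30660 of the same family, whose description lacks the 4 phrases, had 39.6 at −202 bp. These neighbours also had close phases, 10 h and 9 h, as listed by the authors. Their values differ, so they were not 1 peak listed at both genes, but the sources used here do not say how reads matching similar copies were counted; the same limit applies to KIN2, PIP2A, LHCB2.1, UBQ1 and ACT8, which have close homologues. HVA22E (AT5G50720), an ABA-induced membrane protein, had 6.0 at −234 bp. The dehydration-responsive genes RD21A and RD22 had distant peaks. RD21A (AT1G47128), a cysteine protease, had 11.2 at −9993 bp, the farthest of all 46 genes, and RD22 (AT5G25610) had 6.80 at −4161 bp.

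Other genes of redox chemistry and detoxification stood beside GPX6. BCB (AT5G20230), a copper-binding protein of the plasma membrane, had 32.0 at 1 bp from the TSS, and GSTU19 (AT1G78380), a glutathione transferase, had 12 at −674 bp. Both lacked a phase. GPX6 had a phase of 12 h.

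Photosynthetic and carbohydrate genes were also among those annotated to drought or salt. The starch phosphorylase genes PHS2 (AT3G46970, cytosolic) and PHS1 (AT3G29320, plastidial), annotated to water deprivation, had 50.2 at 164 bp and 18.6 at −114 bp. The photosystem I subunit gene PSAE-1 (AT4G28750) had 27.3 at −46 bp and a second peak of 2.99 at −1702 bp, and the light-harvesting gene LHCB2.1 (AT2G05100) had 20.8 at −74 bp. All 4 had a phase listed, the phosphorylases at 10 h and 8 h and the photosynthetic genes at 3 h and 2 h. UGP2 (AT5G17310), a UDP-glucose pyrophosphorylase, had 12.2 at −1322 bp, the nitrite reductase gene NIR1 (AT2G15620) had 11.1 at −1888 bp and AT3G60750, a transketolase, had 9.45 at −155 bp. AT1G64190, of the 6-phosphogluconate dehydrogenase family, had 7.92 at 40 bp.

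Jasmonate synthesis was represented by the tandem genes AOC1 (AT3G25760) and AOC2 (AT3G25770), which encode allene oxide cyclases. AOC1 had 16.3 at −108 bp and AOC2 had 5.23 at −85 bp, and neither had a phase. They were the only pair of these 46 genes within 5 places of each other along a chromosome. They encode related enzymes, and the limit on similar copies given above applies to them too. RNA-binding proteins were CCR1 (AT4G39260, also GRP8), a clock-regulated glycine-rich protein, with 28.3 at −144 bp, and AT2G37220, with 17.8 at −523 bp. Their phases were 8 h and 11 h.

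The remaining genes had moderate to weak peaks, between 17 and 3.17. They were AT5G02240, of a Rossmann-fold family (17 at 24 bp), AT5G17460, of unknown function (14.2 at 218 bp and 9.56 at −161 bp), the TRAF-like gene AT3G28220 (13.2 at −386 bp) and STT3A (AT5G19690), an oligosaccharyltransferase subunit of protein glycosylation (10.4 at −162 bp). AT1G13930, of unknown function, had 8.77 at −610 bp, and PGIP2 (AT5G06870), an inhibitor of fungal polygalacturonase, had 5.33 at −14 bp. UBQ1 (AT3G52590) and ACT8 (AT1G49240), a ubiquitin fusion and an actin gene, had 4.13 at −155 bp and 3.17 at −4630 bp. Only AT1G13930 (8 h) and PGIP2 (5 h) of these 8 genes had a phase.

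Weak peaks carried few distinct values. The −log10 q of the strongest peak recurred at another listed gene for 23 of the 46 genes and at 20 or more others for 7, all of these at 11.3 or lower: NRT1.1, MYB47, RD22, HVA22E, HA1, AOC2 and ARIA. The order of strength among such genes is therefore coarse. No value was shared with a listed gene within 5 places, which is how a peak paired with 2 neighbouring genes would appear.

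Most of the 46 genes had a peak near the TSS, as did the table as a whole. A peak in the promoter window was listed for 33 (71.7%), against 70.2% of all listed genes. The authors' assignment of peaks to the nearest gene pointing away from them favours upstream positions by construction. The median position of the strongest peak was −199.5 bp, against −408.5 bp over all listed genes. In 17 genes (37.0%) it lay 1 to 300 bp upstream, against 33.4%, and in 9 genes (19.6%) at or downstream of the TSS, against 11.6%. More than 300 and up to 1000 bp upstream lay 6 (13%), against 24.2%. Beyond 2000 bp upstream lay 7 genes (15.2%, against 15.4%), namely RD21A, HA1, MYB47, ACT8, RD22, AVP1 and ARIA. Only AVP1 among these 7 was a strong peak. Genes with 2 peaks were 4 (8.70%, against 9.11% with 2 or more in the table). These were PSAE-1, VAMP713, AT5G17460 and MYB47.

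**Figure D3:**
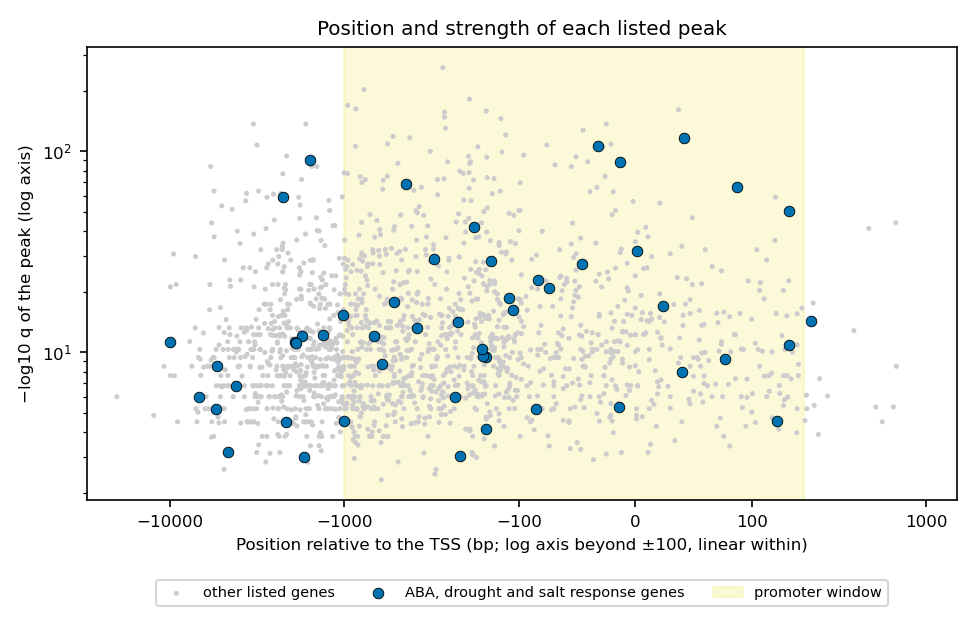
Position relative to the TSS (bp, log axis beyond 100 bp) and −log10 q (log axis) of all 50 peaks of the 46 genes in blue and of the peaks of other listed genes in grey, with the promoter window shaded. The blue points cover most of the range of the grey ones, from −9993 to 218 bp for the strongest peaks.

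The phase of expression in constant light was taken by the authors from a database and not measured with the peaks. It was listed for 26 of the 46 genes (56.5%), against 38.1% of all listed genes. The same share was also taken over other annotated genes of the table. Among the 837 other genes with any process in their description it was 42.7%, and among the 142 other genes with any response term it was 57.0%, close to that of the stress genes. A phase was thus listed about as often as for genes annotated to other stimuli.

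Phases are given in hours after subjective dawn. Of the 26 genes, 11 (42.3%) had a phase of 6 to 11 h, against 45.4% of all listed genes with a phase. At 12 to 17 h were 8 (30.8%, against 17.4%), at 0 to 5 h 4 (15.4%, against 22.5%) and at 18 to 23 h 3 (11.5%, against 14.8%). Within the day group the hours were 8 h for CCR1, COR413-PM1, PHS1, AT1G13930 and ARIA, 10 h for ERD7, KIN2, PHS2, AT4G30650 and VAMP713, and 11 h for AT2G37220. No gene had a phase of 6, 7 or 9 h. The mean phase on the circle of hours was 10.7 h, with a resultant length of 0.444 on a scale from 0 (spread evenly) to 1 (all at the same hour). Over all listed genes it was 7.72 h, with a resultant length of 0.352.

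**Figure D4:**
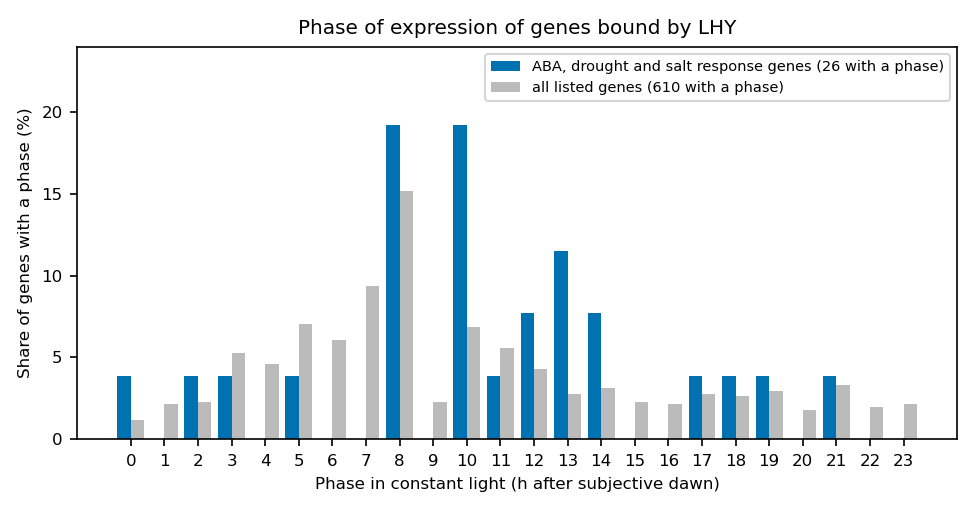
Share of genes with a phase (%) at each hour after subjective dawn in constant light, for 26 stress genes in blue and 610 listed genes in grey, the 26 being part of the 610. The stress genes have their highest bars at 8 and 10 h, with 5 genes each (19.2%, against 15.2% and 6.89% of the listed genes).

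The early-night group was made up of GPX6 and AT1G02750 at 12 h, AVP1, HA1 and AT3G60750 at 13 h, NIR1 and NRT1.7 at 14 h and CRK18 at 17 h. The proton pumps AVP1 and HA1 thus had the same phase, and so had the nitrate genes NIR1 and NRT1.7. NRT1.1 had no phase. The late-night genes were UGP2 at 18 h, FIB at 19 h and RD22 at 21 h. PIP2A at 0 h, LHCB2.1, PSAE-1 and PGIP2 had phases after dawn.

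Peak position was also compared by phase. Of the 11 genes at 6 to 11 h, 10 (90.9%) had a promoter peak, against 85.9% of the 277 listed genes with such a phase, and the exception was ARIA. Of the 11 genes at 12 to 23 h, 5 (45.5%) had one, against 69.4% of 196 listed genes. The 6 without were AVP1, HA1, NRT1.7, NIR1, UGP2 and RD22. AVP1, HA1 and NRT1.7 are transporters given above, so this comparison overlaps with that by role class. It was chosen with earlier results of these data known and was not tested. Genes with a phase had a median −log10 q of 18.2 and those without one 11.2, but strong peaks occurred in both, as at NAC3, BCB and CBF4, which had no phase. Among the 10 strongest of the 46 genes, 8 had a phase, and among the 10 weakest, 5. The same medians and counts were not taken over all listed genes. Whether strength and phase go together in the whole table as well is therefore not known here.

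Cold was named as well at 10 of the 46 genes (21.7%), against 1.79% of 837 other genes with a listed process and 10.6% of the 142 other genes with a response term. These were ERD7, KIN2, FIB, AT4G30650, CCR1, COR413-PM1, AT2G37220, ERD6, HVA22E and AOC2. All 10 had a promoter peak, with positions from −523 to 77 bp, and their median −log10 q was 25.6. A phase was listed for 7, of which 6 lay at 6 to 11 h and FIB at 19 h. Of the 36 genes without cold annotation, 23 (63.9%) had a promoter peak, their median was 12, and 5 of 19 phases (26.3%) lay at 6 to 11 h, so the share of 42.3% above rests in part on the cold-annotated genes. The 16 other listed genes annotated to cold had a promoter peak in 15 cases (93.8%), a median of 31.9 and a phase in 13 cases, of which 6 (46.2%) lay at 6 to 11 h. These cold comparisons were chosen after the values had been seen and were not tested.

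The 4 phrases overlapped but were held mostly singly. Salt stress was named at 29 genes, water deprivation at 19, ABA at 14 and osmotic stress at KIN2 only. Of the 46 genes, 33 held 1 phrase, 10 held 2, and HD2C and ERD6 held 3. ABA and water deprivation were named together at 8 genes, 57.1% of the ABA genes and 42.1% of the water deprivation genes. ABA and salt stress were named together at 5, 35.7% and 17.2% of these. The median −log10 q was 15.6 for ABA, 16.3 for water deprivation and 12.2 for salt stress, and a promoter peak was listed for 11, 14 and 19 genes (78.6%, 73.7% and 65.5%). A phase was listed for 8, 9 and 18 genes. The 4 genes with a phase of 0 to 5 h, PIP2A, LHCB2.1, PSAE-1 and PGIP2, were all annotated to salt stress, which was also the phrase with the most phases. The 21 genes annotated to salt stress alone, GPX6 and BCB among them, had a median of 12.

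In their other annotation, membrane and plastid locations were frequent. The plasma membrane was named at 18 of the 46 genes (39.1%), against 12.9% of 837 other genes with a listed process and 14.8% of the 142 other genes with a response term. A chloroplast location was named at 17 (37.0%, against 20.4% and 18.3%) and the vacuole at 9 (19.6%, against 4.78% and 7.04%). The nucleus was named at 5 (10.9%, against 9.44% and 14.8%). A response to cadmium was named at 6 genes (13%, against 1.43% and 8.45%), GPX6, PHS2, UGP2, GSTU19, AT3G60750 and AT1G13930. Descriptions of the 46 genes listed a median of 3 processes, against 1 for the 837 other genes and 2 for the 142 with a response term. The number of locations listed per gene was not taken. Whether the length of the descriptions bears on these shares was not tested.

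The phrases reach only part of the listed ABA and drought genes, and a process was listed for 883 of the 1602 genes (55.1%). In 8 textbook lists of 146 genes of ABA and stress pathways, 36 (24.7%) were in the peak table, against 5.38% of all nuclear protein-coding genes. The lists were drawn up with earlier results of these data known, so the share is a description. Of the 36, 11 held a phrase and 25 did not, and of the 25, 17 had no process listed and 8 had other processes listed. DREB2A (AT5G05410), a transcription factor that activates dehydration genes, was the strongest of these 25, with 105 at −28 bp. Its homologues DREB2C and DREB2B had 50.6 at −17 bp and 25.6 at −51 bp, and all 3 peaks thus lay within 60 bp of the TSS. DREB2C and DREB2B had phases of 8 h and 11 h, and none was listed for DREB2A.

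**Figure D5:**
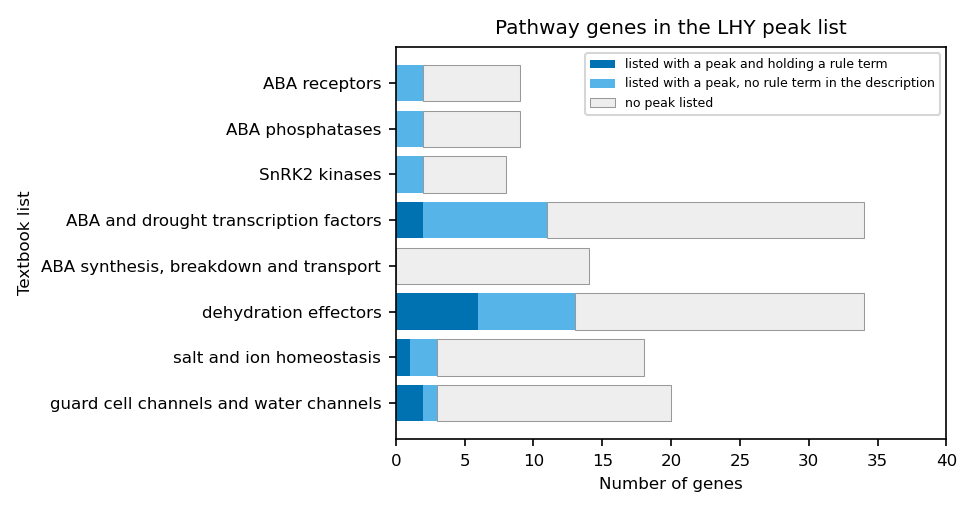
Number of genes in each of 8 textbook lists that were in the peak table and held a phrase (dark blue), were in the table without a phrase (light blue) or had no peak listed (grey). The ABA receptors, phosphatases and SnRK2 kinases each have 2 genes in the table, none with a phrase, and of the 14 genes of ABA synthesis, breakdown and transport none has a peak.

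The core of ABA signalling was in the table by 2 receptor genes, PYL7 and PYL8, 2 phosphatase genes, HAI2 and PP2CA, and 2 kinase genes, SNRK2.2 and SNRK2.3, of 9, 9 and 8 list genes. PYL7 had 25 at −259 bp and PYL8 7.98 at −1887 bp. HAI2 had 65.3 at −193 bp, 11.7 at −1569 bp and 7.63 at −2425 bp. PP2CA had 9.39 at −113 bp, 7.64 at −2935 bp and 6.80 at −4682 bp. The same PP2CA values are listed at the neighbouring gene AT3G11420, at −5573, −2751 and −1004 bp. Peaks paired with 2 neighbouring genes would appear in this way. SNRK2.2 had 58.9 at 137 bp with a phase of 10 h, and SNRK2.3 had 14.2 at −10 bp with a phase of 8 h. Of each pair, at least 1 gene thus had a promoter peak. None of the 6 descriptions held a phrase, so none of these genes is among the 46.

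Of 34 transcription factor genes, 11 were in the table. Besides NAC3, CBF4 and the DREB2 genes these were NAC019 (25.1 at −918 bp), a homologue of NAC3, MYB44 (14.6 at −968 bp and 12 at −4131 bp), the zinc finger genes ZAT12 (59.1 at −1029 bp) and STZ (4.75 at −154 bp), and ABI3 (10.3 at −3384 bp) and ABI5 (6.52 at −16 bp and 5.32 at 514 bp), which act in seed dormancy and germination. A phase was listed only for DREB2B and DREB2C. The genes ABF1, ABF2, ABF3 and ABF4, which encode the factors that SnRK2 kinases activate, had no peak listed.

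Of 34 dehydration effector genes, 13 were in the table, 6 of them with a phrase. Those without were P5CS1 (17.5 at 225 bp), a proline synthesis enzyme, and ERD5 (6.80 at −2590 bp), a proline dehydrogenase, the galactinol synthase genes GOLS2 (15.1 at −231 bp) and GOLS3 (7.12 at −159 bp), COR15B (23.9 at −64 bp), COR47 (13.2 at −907 bp) and LEA14 (6.73 at −255 bp). Both COR15B and COR47, genes of cold and dehydration, had a phase of 8 h, as COR413-PM1 did. The proline and galactinol genes had none.

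Of 18 genes of salt and ion homeostasis, 3 were in the table, AVP1, STO (peak at −15 bp, phase 3 h), a B-box gene named for salt tolerance in yeast, and SOS2, a kinase of sodium tolerance, whose peak of 6.0 at −20124 bp is the farthest of the whole table. SOS1 and SOS3, which act with SOS2, had none. Of 20 genes of guard cell and water channels, 3 were listed, PIP2A, HA1 (in the list as AHA1) and DELTA-TIP (6.0 at −705 bp, phase 5 h), an aquaporin of the vacuole. The other PIP aquaporins of the list had no peak.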

How the data were processed

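Peaks were measured in 1 pooled ChIP library against 1 input library. Bowtie and MACS2 2.0.10.09132012 with the TAIR9 build are named in the submitters' processing notes; the sources used here do not name the thresholds, nor which point of a peak its position refers to. Per the file headers, the deposited table gives for each gene the −log10 q of up to 4 peaks, which another header line calls −log10 of the p-value, their position relative to the TSS, and a phase in whole hours that was retrieved at a cut-off of 0.8 from the Diurnal database and not measured here.

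Members were found by the 4 phrases in the description, ignoring case. The members, gene lists and comparisons were chosen with earlier results of these data known. Loci were matched to a TAIR10.1 gene table (1596 of 1602, and all 46), used for symbols, biotypes and gene order only. For the textbook lists, 5 loci were set by hand where a symbol was missing, named 2 loci or named another gene. Role classes followed keywords in the description, with 3 members corrected by hand. Named were the 10 strongest members, those with 2 peaks, the strongest of each phrase and class, the 3 weakest and all list genes with a peak; the other members were added so that all are given. No set test was made. Planned searches for the evening element and other motifs were not run, since promoter sequence was not analysed here. The reading steps were tested on simulated data. Python 3.11.15, NumPy 2.4.6, SciPy 1.17.1 and Matplotlib 3.10.9 were used.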

Additional observations from a re-analysis of the deposited data

How the results depend on the processing

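Of 50 alternative values, 45 stayed within the 95% exact binomial interval of the value reported, or within 1.5 times it for a count, and kept the sign of a difference. This count says little about stability, since many alternatives were subsets of the same genes. The interval is also wide for 26 genes with a phase: 26.3% and 61.5% both stayed within that of 42.3%. The share with a promoter peak was 89.1% with a window of 3000 bp upstream, wider by construction. The share of phases at 6 to 11 h became 23.1% when 4 to 9 h were counted, which leaves out the genes at 10 and 11 h. From 8 to 13 h it was 61.5%. Shares of all listed genes were not taken for these shifted windows, so the closeness of 42.3% to 45.4% was seen for 6 to 11 h only. Single hours could lie further apart: 10 h held 5 of the 26 stress genes with a phase (19.2%), against 6.89% of all listed. At 7 h there was none, against 9.34%. Both hours were picked after the values had been seen, and a single hour holds few of the 26 genes. Wider wording (drought, dehydration, osmotic) gave 57 genes, adding ABI5, DREB1A, SOS4 and others. The difference in the share with a phase, 18.4 percentage points against all listed genes, was −0.521 against other genes with a response term, and that in promoter peaks, 1.51 points, was −2.20 against those and −0.901 against other genes with a listed process; the cause was not tested. Alternatives without AOC1 and AOC2, without UBQ1 and ACT8 or without cold-annotated genes, and the comparison genes other than those for the phase share with response terms, were chosen after seeing the data. All 46 loci were nuclear and protein-coding and none shared a peak with a neighbour, so leaving out other loci or shared peaks could change nothing. Those values are nevertheless counted among the 45. The evening element alternatives were not run. Depth is unknown and could not be used to weigh peaks. No paired analysis was possible because there was 1 library in each group.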
